A study of Mus musculus with 6 samples.

Results

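Innate immune sensors are the receptors with which dendritic cells (DC) recognise microbes and damaged cells, and the 46 genes described here are the mouse Toll-like receptors (TLR), NOD-like receptors, RIG-I-like receptors and DNA sensors together with their adaptors, accessory proteins and proximal kinases. The rule that picked them used symbols and roles, not measured values, but the list was chosen with earlier results of these data known. Of the 46, 42 had a probe set annotated with that symbol only, and 39 reached the background level (a log2 value of 6.5 in at least 1 array), out of 9922 genes measured in the series. Tlr5, Tlr11, Irak4 and Ripk2 had no such probe set in the tables used here, so no value is given for them. The proteins of plasma membrane TLR bind lipids and proteins of bacteria and fungi, whereas most endosomal TLR bind nucleic acids. Most TLR signal through the adaptor Myd88 and kinases of the IRAK family. Tlr3 signals through Ticam1 (TRIF) instead, and Tlr4 through both adaptors. NOD-like and RIG-I-like receptors and Aim2 act in the cytosol, where some assemble inflammasomes and others induce type I interferon.

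RNA was measured on 6 arrays, each of CD4+ DC sorted from the spleen of a single male mouse aged 6 weeks. The 3 Runx3-/- mice carried a germ-line loss of the transcription factor Runx3 in every cell, and the 3 WT mice (Runx3 +/+ in the labels) were their littermates, 1 of each genotype per litter, with the replicate number naming the litter. Splenocytes passed a magnetic enrichment and were then sorted on CD11c, MHCII, CD4 and CD8. No stimulus is named, and the labels do not give the strain. Because Runx3 was lost throughout the animal, effects in the DC themselves and effects through other cells cannot be told apart in these samples. Values are log2 intensities, and levels of different genes are not compared because probe sets differ in brightness. The array number limits precision.

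Runx3 itself averaged 9.21 ± 0.08 in Runx3-/- cells and 11.19 ± 0.07 in WT cells (SD, n = 3 each), 25.3% of the WT level (limma adjusted p = 0.0027; exact two-sided permutation p = 0.1, the smallest possible with 3 arrays against 3). Whether its probe set lies in the altered part of the locus was not tested. All 10 markers of splenic CD4+ DC were measured, with a summed level (log2 of the sum of unlogged values) of 15.45 to 15.50 in Runx3-/- and 15.47 to 15.54 in WT arrays. Such a sum mostly follows its brightest genes, such as H2-Aa. Of the 10, Irf4 alone was called (lower, log2 change -0.62). Without passing the test, Zbtb46 (-0.35), Flt3 (-0.28), Clec4a4 (-0.27) and Itgax (-0.11) also lay wholly below WT. Itgam (0.47) and Sirpa (0.16) lay wholly above WT, and Cd4, H2-Aa and Esam overlapped. Markers of other cells moved with genotype. Of 7 red pulp macrophage markers, 5 were called higher (C1qa, C1qb, C1qc, Mertk and Spic), the list summing to 13.67 to 13.92 in Runx3-/- and 12.89 to 13.25 in WT arrays, and 1 of 5 measured monocyte markers was called higher (Cx3cr1; sums 13.86 to 13.98 in Runx3-/- and 13.17 to 13.47 in WT). B cell sums were 10.72 to 10.81 in Runx3-/- and 10.08 to 10.59 in WT arrays with Ebf1 and Pax5 below background in all 6, and CD8+ DC sums were 11.64 to 12.24 in Runx3-/- and 11.41 to 11.55 in WT arrays. Neutrophil sums were 8.39, 7.73 and 7.84 in Runx3-/- replicates 1 to 3 and 7.62 to 7.82 in WT arrays, with 5 of 6 markers below background, and all 4 T cell and all 3 NK cell markers were below background in every array. In Runx3-/- replicate 3 the plasmacytoid DC (pDC) marker Siglech stood apart at 10.18, against 7.46 and 8.18 in the other Runx3-/- arrays and 7.40 to 7.45 in WT. In Runx3-/- replicate 1 the remaining neutrophil marker, Ngp, stood apart at 7.13, against 5.52 and 5.55 in the other Runx3-/- arrays and 5.26 to 5.59 in WT. In such bulk samples, more cells of a type and more RNA per cell cannot be told apart.

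Among the 39 measured genes, loss of Runx3 was accompanied by higher Tlr8, a receptor of endosomal RNA, and higher Irak3, an IRAK family member that restrains TLR signalling. Both were about 2.5-fold higher, and no sensor or adaptor was called lower. Of the 39, 23 lay within 0.2 log2 of no change. The share of all genes within that limit was not computed, but the median absolute change over all genes was 0.11, so most genes at large lay within it too. The median signed change, in which rises and falls cancel, was 0.02 for the 39, against -0.03 over all 9922 genes. Over all 42 genes with a probe set the median difference was 0.03. By limma with Benjamini-Hochberg adjustment over 19149 probe sets, 2 of the 39 were called higher (5.13%, against 1.36% of all measured genes) and 0 were called lower (0.907% of all genes). At the unadjusted p of 0.05, 10 were higher (25.6%, against 7.59% of all genes) and 4 lower (10.3%, against 11.8% of all genes). The thresholds of the study's methods (unadjusted p of at most 0.05 and at least 1.5-fold) added Cd14 and Ly96, giving 4 higher (10.3%, against 3.05% of all genes) and 0 lower (1.62% of all genes). The 3 Runx3-/- arrays all lay above the 3 WT arrays for 12 genes (30.8%, against 9.86% of all genes) and all below for 8 (20.5%, against 18.6% of all genes), so the share lying wholly below was near that of genes at large.

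The calls rested on few arrays. With litter as a replicate block, 0 of the 19149 probe sets passed, those of these genes included (adjusted p of 0.13 for Tlr8 and 0.065 for Irak3), although 3430 had an unadjusted p of at most 0.05. Leaving out any single array except WT replicate 2 left 0 of the 39 genes called, including Runx3-/- replicate 3, without which 1 of 19042 probe sets passed, and leaving out WT replicate 2 gave 3 (Cd14, Irak3 and Tlr8). Without Runx3-/- replicate 3 the log2 changes were 1.37 for Tlr8, 1.45 for Irak3, 1.07 for Cd14 and 0.65 for Ly96, no smaller than with it. Without Runx3-/- replicate 1 they were 1.21 for Tlr8, 1.36 for Irak3, 0.92 for Cd14 and 0.49 for Ly96.

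**Figure D1:**
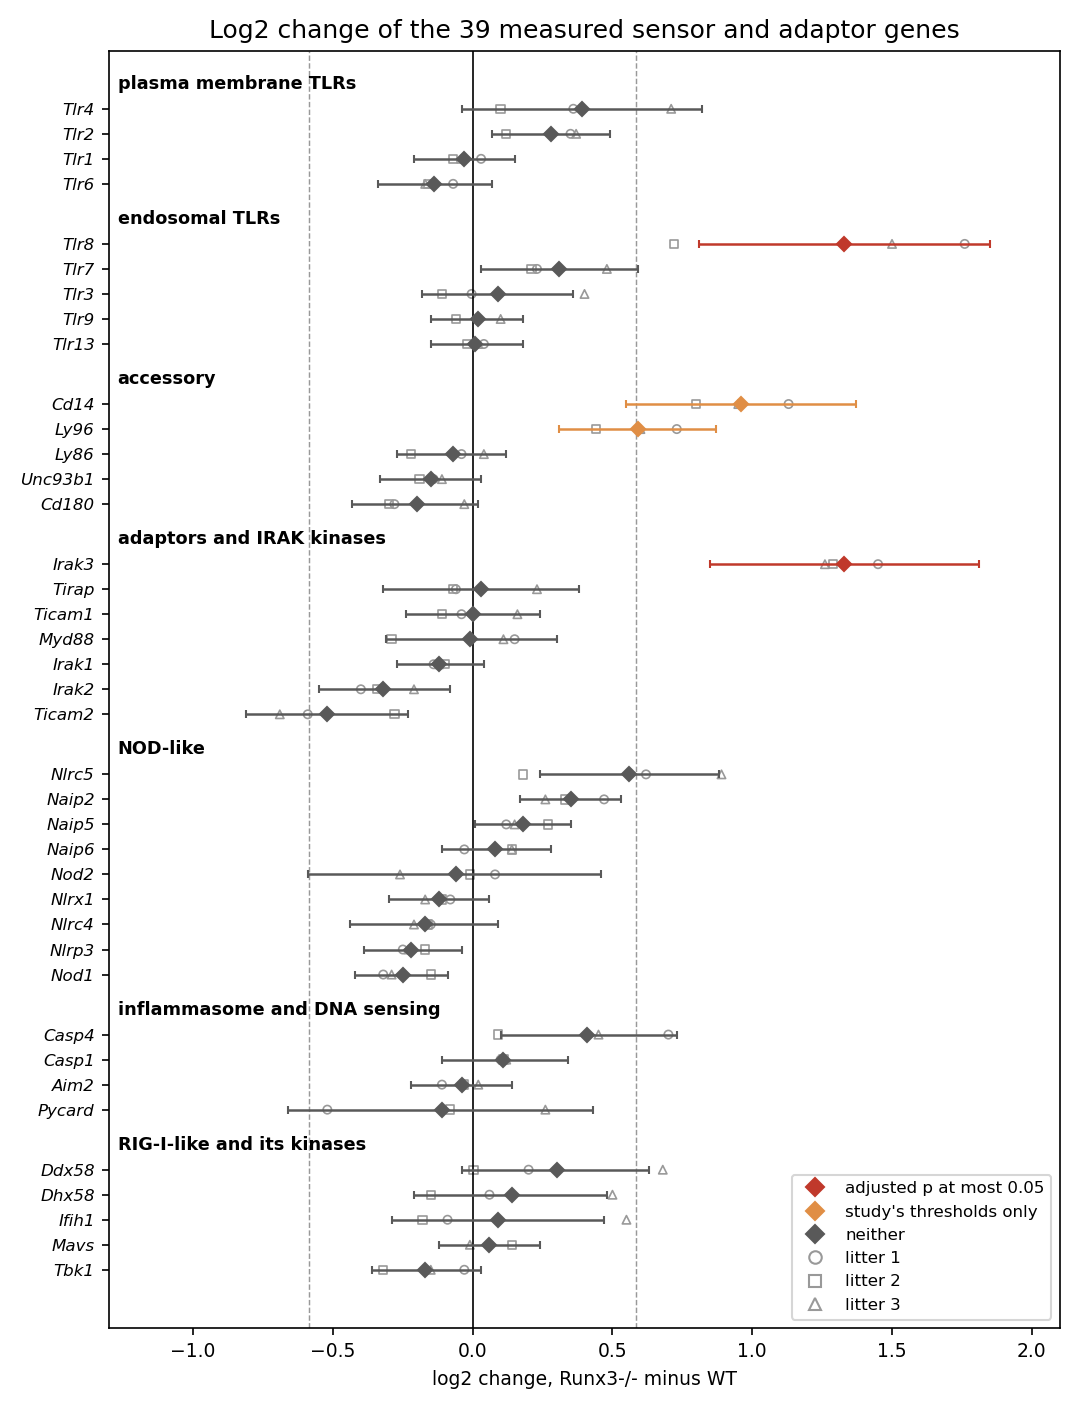
Log2 change (Runx3-/- minus WT, horizontal axis) of the 39 measured genes, ordered by role. Diamonds with bars are limma estimates with 95% confidence intervals, open symbols are the differences within each of the 3 litters, and dashed lines mark 1.5-fold. Tlr8 and Irak3, both at 1.33, stand to the right of all others, followed by Cd14 at 0.96.

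The endosomal receptor Tlr8 had the largest change of the TLR, with Irak3 at the same rounded value. Its human counterpart binds single-stranded RNA, whereas its ligands in mice are less settled. Tlr8 was at 10.55, 10.17 and 10.24 in Runx3-/- replicates 1 to 3 and at 8.79, 9.45 and 8.74 in WT replicates 1 to 3. The lowest Runx3-/- array was above the highest WT array, which came from litter 2, where the difference was smallest (0.72, against 1.76 and 1.5 in litters 1 and 3). The log2 change was 1.33 (SE 0.21, 2.51-fold, limma adjusted p = 0.047, range 0.016 to 0.19 over 14 alternative settings). Tlr7, which binds single-stranded RNA and lies beside Tlr8 on the X chromosome with no protein-coding gene between, had a smaller difference. It was at 11.79, 11.96 and 11.83 in Runx3-/- arrays and at 11.56, 11.74 and 11.35 in WT arrays, without overlap, and its log2 change was 0.31 (SE 0.12, adjusted p = 0.28). Within each array, Tlr8 minus Tlr7 was -1.24, -1.79 and -1.58 in Runx3-/- cells and -2.77, -2.29 and -2.61 in WT cells, a difference of 1.02 in which the genotypes did not overlap (exact two-sided permutation p = 0.1, adjusted p = 0.167 over 5 pairs of adjacent genes). Because 0.1 is the smallest p that 3 arrays against 3 can give, this test could not pass for any pair.

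The remaining endosomal receptors were close to level. Tlr3, a receptor of double-stranded RNA, had a log2 change of 0.09 (95% confidence interval -0.18 to 0.36). Tlr9, which binds unmethylated CpG DNA, averaged 11.61 ± 0.02 in Runx3-/- and 11.59 ± 0.07 in WT arrays (SD, n = 3 each), a change of 0.02 (interval -0.15 to 0.18). Tlr13, which binds bacterial ribosomal RNA, had a change of 0.01 (interval -0.15 to 0.18). These intervals exclude a change as large as that of Tlr8. Tlr12, which in mice takes part in sensing the profilin of parasites, was below background in all 6 arrays, at 6.16, 5.94 and 6.01 in Runx3-/- cells against 5.50, 5.59 and 5.59 in WT cells. Unc93b1, the chaperone that carries TLR to endosomes, was at 12.13, 12.18 and 12.09 in Runx3-/- arrays and 12.27, 12.37 and 12.21 in WT arrays, without overlap but not past the test (log2 change -0.15, adjusted p = 0.4).

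Of the plasma membrane receptors none was called. Tlr2, the partner of Tlr1 and Tlr6 in binding bacterial lipoproteins, was at 9.26, 9.28 and 9.35 in Runx3-/- cells and at 8.91, 9.15 and 8.99 in WT cells, with a change of 0.28 (SE 0.09, adjusted p = 0.19). The co-receptors of Tlr2, adjacent to each other on chromosome 5, had changes of -0.03 for Tlr1 (0.01 after median centring of the arrays) and -0.14 for Tlr6, with overlapping arrays. The lipopolysaccharide receptor Tlr4 had a larger but less even change of 0.39 (SE 0.18, adjusted p = 0.36), with litter differences of 0.36, 0.10 and 0.71 and WT replicate 3 the lowest array at 7.58, without which the change was 0.19.

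Partners of Tlr4 showed larger differences than the receptor did, though the difference between them was not tested. Cd14, which transfers lipopolysaccharide to Tlr4, was at 7.39, 7.48 and 7.09 in Runx3-/- arrays and at 6.26, 6.68 and 6.15 in WT arrays. All Runx3-/- arrays lay above all WT arrays, of which 1 of 3 reached background, so that the fold is measured against values near the floor (log2 change 0.96, SE 0.17, 1.94-fold, adjusted p = 0.059, 0.078 with the litter block). Ly96 (MD-2), the subunit of the receptor that holds the lipid, was at 11.93, 11.64 and 11.60 in Runx3-/- arrays and at 11.20, 11.20 and 10.99 in WT arrays. Its arrays also did not overlap, and the change was 0.59 (SE 0.12, 1.51-fold, adjusted p = 0.076, 0.10 with the block). Ly96 thus lay just inside the study's 1.5-fold threshold and Nlrc5 (1.48-fold) just outside it. The related pair Cd180 and Ly86, a receptor and its MD-1 subunit that temper Tlr4, had changes of -0.20 and -0.07 with overlapping arrays.

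**Figure D2:**
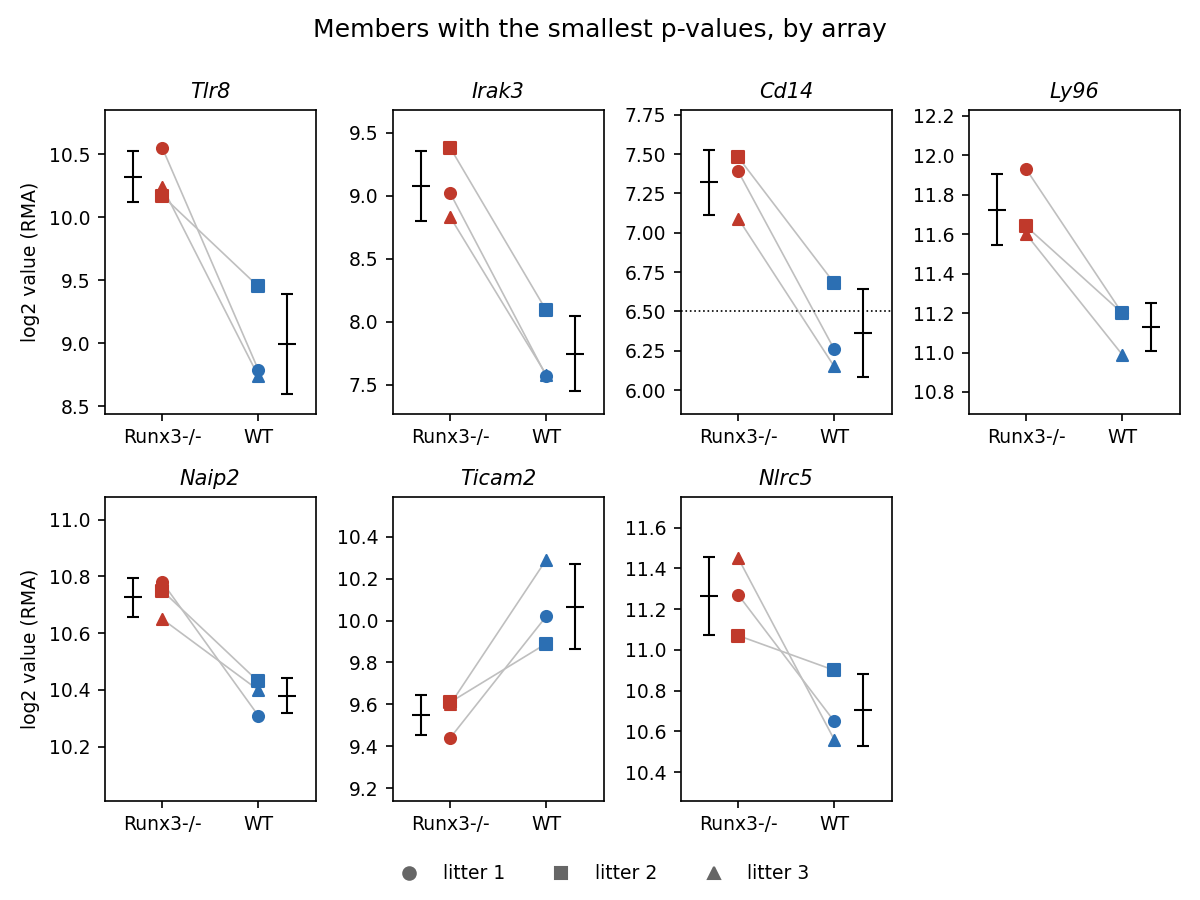
Log2 values of the 7 measured genes with the smallest p-values in each array, Runx3-/- left of WT, with litter mates joined by grey lines and means ± SD (n = 3) beside the points. Each panel has its own vertical axis, none of which starts at 0, and the dotted line in the Cd14 panel is the background level of 6.5. In every panel the genotypes do not overlap, with Ticam2 alone lower in Runx3-/-.

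Downstream of the receptors, Irak3 (IRAK-M), which prevents the release of active IRAK kinases from the receptor complex, was at 9.02, 9.38 and 8.83 in Runx3-/- arrays. In WT arrays it was at 7.57, 8.09 and 7.58. The genotypes were separated by more than the spread within either, and the litter differences were alike at 1.45, 1.29 and 1.26. The log2 change was 1.33 (SE 0.20, 2.52-fold, limma adjusted p = 0.039, range 0.013 to 0.17 over 14 alternative settings). The other IRAK genes pointed the other way without passing the test. Irak2, a kinase that sustains signalling, had a change of -0.32 (SE 0.10, adjusted p = 0.19) and Irak1, a kinase activated early, of -0.12 (SE 0.06, adjusted p = 0.43), in both without overlap of arrays.

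The adaptor Ticam2 (TRAM), which links Tlr4 to Ticam1, had the largest negative change of the 39 genes. It was at 9.44, 9.61 and 9.60 in Runx3-/- arrays and at 10.02, 9.89 and 10.29 in WT arrays. No array overlapped, but the change of -0.52 (SE 0.12, 1.43-fold) did not pass (adjusted p = 0.11, range 0.046 to 0.31). Its partner Ticam1 was at 8.28 ± 0.03 in Runx3-/- and 8.28 ± 0.16 in WT arrays. Myd88, the adaptor of most TLR, had a change of -0.01 (interval -0.31 to 0.30; 0.03 after median centring), and Tirap, which brings Myd88 to the membrane, of 0.03 (interval -0.32 to 0.38).

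Tlr8, Irak3, Cd14 and Ly96 are also expressed by macrophages and monocytes, whose marker sums did not overlap between the genotypes either. That separation was not particular to them, since the pDC, CD8+ DC and B cell sums were also higher in Runx3-/- without overlap. So were the sums of T cell markers (7.52 to 7.74 against 7.39 to 7.46 in WT) and NK cell markers (6.81 to 6.87 against 6.62 to 6.70), all below background. Within the macrophage list the log2 changes ran from 0.01 for Adgre1 (adjusted p = 0.97) to 1.95 for Mertk (adjusted p = 0.024), with a median of 1.39. The part of macrophages and monocytes, or of such genes within the sorted cells, in the changes of the sensors was not tested. The 4 genes were not highest in the array that stood apart for pDC markers: Runx3-/- replicate 1 was highest for Tlr8 and Ly96 and replicate 2 for Irak3 and Cd14. Replicate 1 is also the array with the high Ngp, whose part in these values was not tested.

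The 300-base windows around the annotated starts of the 2 called genes are shown because both were higher in Runx3-/- cells. They run from 250 bases before to 50 bases after the start in RefSeq's annotation of GRCm38.p6, at chrX:167264280-167264579 for Tlr8 and, for the start of Irak3 shown of 2 listed, chr10:120202081-120202380, both on the minus strand and printed along the gene. No base is in capitals because neither window, nor that of the other Irak3 start, holds the RUNX letters TGTGGT on either strand.
Tlr8 window: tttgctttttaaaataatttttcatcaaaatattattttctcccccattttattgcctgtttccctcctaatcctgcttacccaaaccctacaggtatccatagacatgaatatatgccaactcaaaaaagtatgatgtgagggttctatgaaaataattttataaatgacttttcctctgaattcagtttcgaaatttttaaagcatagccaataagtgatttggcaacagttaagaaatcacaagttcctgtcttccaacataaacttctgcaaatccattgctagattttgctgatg
Irak3 window: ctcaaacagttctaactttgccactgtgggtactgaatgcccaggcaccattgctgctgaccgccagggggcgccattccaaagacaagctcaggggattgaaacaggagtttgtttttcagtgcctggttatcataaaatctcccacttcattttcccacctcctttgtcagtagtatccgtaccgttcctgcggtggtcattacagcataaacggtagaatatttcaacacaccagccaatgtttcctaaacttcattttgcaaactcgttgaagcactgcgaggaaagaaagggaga
The letters TGTGGT stood in the windows of 18.9% of 27025 genes and of 6 of the 31 measured sensor and adaptor genes with a window (19.4%), namely Irak1, Naip2, Naip6, Nlrc4, Nod1 and Tlr6. The letters GAGGAAGT of a PU.1 motif stood in 3.69% of genes and in 4 of the 31 (Aim2, Pycard, Tlr1 and Tlr9). No window was found for the measured genes Cd14, Ly96, Ticam2, Nlrc5, Tlr4, Tlr7, Unc93b1 and Dhx58, so these shares do not cover them. A match is a description of the letters only, and RUNX binding elsewhere was not examined.

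Of 9 measured NOD-like genes, none was called by its brightest probe set, and their changes ran from -0.25 to 0.56. Nlrc5, a transactivator of MHC class I genes, was at 11.27, 11.07 and 11.45 in Runx3-/- arrays and at 10.65, 10.90 and 10.56 in WT arrays. The arrays did not overlap, and the change was 0.56 (SE 0.13, adjusted p = 0.11; 0.47 without Runx3-/- replicate 3). Nlrc5 had 19 probe sets, and all 19 gave positive changes without overlap of arrays, ranging from 0.33 to 0.75 with a median of 0.58. These probe sets read 1 transcript in the same 6 RNA samples and are not independent. By limma 2 of the 19 were called (adjusted p of 0.043 and 0.03), 9 passed the study's thresholds and 0 passed with the litter block. Taking the mean of the 19 gave a change of 0.58 (adjusted p = 0.038 in that gene-level fit). In 18 of the 19, Runx3-/- replicate 3 was the highest Runx3-/- array.

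**Figure D3:**
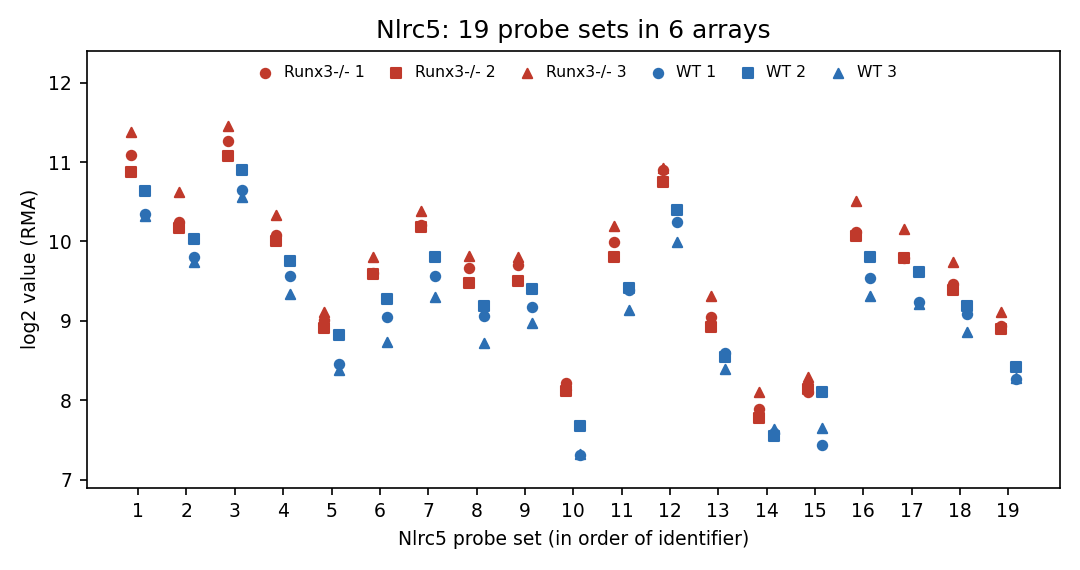
Log2 values of the 19 Nlrc5 probe sets in order of identifier (horizontal axis), with Runx3-/- arrays in red left of WT arrays in blue and a symbol for each litter. The vertical axis does not start at 0. At every probe set the 3 Runx3-/- arrays lie above the 3 WT arrays.

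The Naip proteins bind bacterial components in the mouse, the rod of type III secretion systems for Naip2 and flagellin for Naip5 and Naip6, and then recruit Nlrc4. Naip2 was at 10.78, 10.75 and 10.65 in Runx3-/- arrays and at 10.31, 10.43 and 10.40 in WT arrays. The arrays did not overlap and the spread within each genotype was small, but the change of 0.35 (SE 0.07, 1.28-fold) did not pass (adjusted p = 0.087, range 0.033 to 0.31). Naip5 had a change of 0.18 (adjusted p = 0.28) and Naip6 of 0.08 (adjusted p = 0.68). Naip5 and Naip6 averaged 10.82 and 10.83 in Runx3-/- arrays, and 10.64 and 10.75 in WT arrays. Because the Naip genes are close copies, probes may not tell them apart fully, which was not tested. Within each array, Naip2 minus Naip5 was -0.04, -0.13 and -0.12 in Runx3-/- and -0.39, -0.18 and -0.22 in WT (exact two-sided permutation p = 0.1, adjusted p = 0.167). Naip5 minus Naip6 also separated the genotypes, with the same p, at a difference of only 0.10. Nlrc4, the shared partner, had a change of -0.17 (interval -0.44 to 0.09).

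The windows of the 3 Naip genes are shown because these neighbours on chromosome 13 are related genes that differ in the RUNX letters, given in capitals. They lie at chr13:100202073-100202372 for Naip2, chr13:100247287-100247586 for Naip5 and chr13:100316567-100316866 for Naip6 of GRCm38.p6, all on the minus strand and printed along the gene.
Naip2 window: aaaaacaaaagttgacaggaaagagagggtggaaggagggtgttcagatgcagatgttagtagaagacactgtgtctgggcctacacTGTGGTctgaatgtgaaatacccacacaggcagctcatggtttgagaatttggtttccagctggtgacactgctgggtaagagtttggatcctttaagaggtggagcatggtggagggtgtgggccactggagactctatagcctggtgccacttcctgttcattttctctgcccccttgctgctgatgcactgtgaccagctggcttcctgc
Naip5 window: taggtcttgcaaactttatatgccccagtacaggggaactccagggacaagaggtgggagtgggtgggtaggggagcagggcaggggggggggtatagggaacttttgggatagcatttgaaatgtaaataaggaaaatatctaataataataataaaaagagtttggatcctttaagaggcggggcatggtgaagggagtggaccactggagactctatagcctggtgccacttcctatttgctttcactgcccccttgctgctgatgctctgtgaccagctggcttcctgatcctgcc
Naip6 window: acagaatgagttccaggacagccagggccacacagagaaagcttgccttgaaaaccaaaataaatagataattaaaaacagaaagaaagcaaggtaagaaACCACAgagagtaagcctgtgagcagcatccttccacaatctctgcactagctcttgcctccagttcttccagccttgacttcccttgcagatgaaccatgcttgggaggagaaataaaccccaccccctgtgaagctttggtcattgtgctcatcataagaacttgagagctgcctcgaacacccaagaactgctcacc
TGTGGT begins at position -163 from the start of Naip2 on the gene's strand and at -150 from that of Naip6 on the opposite strand (read as ACCACA), and the Naip5 window holds neither. Aligned bases were identical at 73.1% of positions between Naip2 and Naip5, 60.3% between Naip2 and Naip6 and 60.2% between Naip5 and Naip6.

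The remaining NOD-like genes were near level or lower without passing the test. Nod1, a receptor of bacterial peptidoglycan fragments, was at 10.72, 10.85 and 10.78 in Runx3-/- arrays and at 11.04, 11.00 and 11.07 in WT arrays. No array overlapped, and the change was -0.25 (SE 0.07, adjusted p = 0.15). Its relative Nod2, which binds muramyl dipeptide, had a change of -0.06 with a wide interval (-0.59 to 0.46). Nlrp3, the core of an inflammasome that answers to membrane damage, had a change of -0.22 (SE 0.07, adjusted p = 0.23) without overlap of arrays. Nlrx1, a mitochondrial member, had a change of -0.12, and Nlrc3, a restraint on signalling, was below background in all arrays (means 5.06 in Runx3-/- and 5.04 in WT).

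Among inflammasome genes, Casp4, the mouse caspase-11 that binds cytosolic lipopolysaccharide, had the largest change. It was at 10.33, 10.02 and 10.05 in Runx3-/- arrays and 9.64, 9.93 and 9.60 in WT arrays, without overlap, with a change of 0.41 (SE 0.13, adjusted p = 0.21). Its neighbour Casp1, which matures interleukin-1β, had a change of 0.11 with overlapping arrays, and the difference between the neighbours overlapped as well (0.30, exact two-sided permutation p = 0.3, adjusted p = 0.375). Aim2, which binds double-stranded DNA, was level (-0.04, interval -0.22 to 0.14; 0.00071 after median centring). Pycard (ASC), the adaptor that joins sensors to Casp1, was the least even, at 8.87, 9.46 and 9.78 in Runx3-/- and 9.39, 9.54 and 9.52 in WT arrays (change -0.11, interval -0.66 to 0.43).

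The 3 RIG-I-like receptors were highest in the array that stood apart for pDC markers, and none was called. Ddx58 (RIG-I), a receptor of uncapped viral RNA, was at 11.29, 11.19 and 11.66 in Runx3-/- arrays and 11.08, 11.19 and 10.98 in WT arrays, and replicate 2 of the genotypes differed by only 0.0028, so the arrays barely failed to overlap. Ifih1 (MDA5), which binds long double-stranded RNA, was at 10.49, 10.51 and 11.01 in Runx3-/- arrays and 10.58, 10.69 and 10.46 in WT arrays. Dhx58 (LGP2), which modulates both, was at 9.91, 9.84 and 10.32 in Runx3-/- arrays and 9.84, 9.99 and 9.82 in WT arrays. In each case Runx3-/- replicate 3 was the highest of the 6 arrays, as it was for the pDC markers Siglech and Ccr9 (9.35, against 7.68 and 8.05 in the other Runx3-/- arrays and 7.02 to 7.63 in WT). The same array was highest for Irf7 and Zbp1, 2 genes of the interferon response picked after their values were seen, whose SD was 0.60 and 0.65 in Runx3-/- and 0.21 and 0.10 in WT arrays. Over the 39 measured genes, that array was the highest Runx3-/- array for 11, against 14 each for replicates 1 and 2. The 5 pDC markers with a probe set summed to 9.27, 9.64 and 11.12 in Runx3-/- and 8.99 to 9.17 in WT arrays, with Pacsin1 below background in all 6. Markers of pDC were not the only ones highest in Runx3-/- replicate 3. Its CD8+ DC, B cell, T cell and NK cell sums (12.24, 10.81, 7.74 and 6.87) were also the highest. The CD8+ DC marker Clec9a was at 8.33 there, against 7.07 and 7.13 in the other Runx3-/- arrays and 6.64 to 7.23 in WT. Another, Batf3, was lowest there (7.74). The monocyte, macrophage and neutrophil sums were highest in Runx3-/- replicate 1. Whether pDC or other cells in replicate 3 had a part in the sensor values was not tested. Tlr9, which pDC also express, was at 11.61 in Runx3-/- replicate 3, within the 11.51 to 11.65 of all 6 arrays. With all arrays the changes were 0.30 for Ddx58, 0.09 for Ifih1 and 0.14 for Dhx58 (adjusted p of 0.37, 0.82 and 0.7), and without Runx3-/- replicate 3 they were 0.16, -0.08 and -0.01. Mavs, their mitochondrial adaptor, had a change of 0.06, the kinase Tbk1 one of -0.17 without overlap of arrays, and the related kinase Ikbke was below background in all arrays (6.47, 5.78 and 5.90 in Runx3-/-, 5.47, 5.51 and 5.61 in WT).

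**Figure D4:**
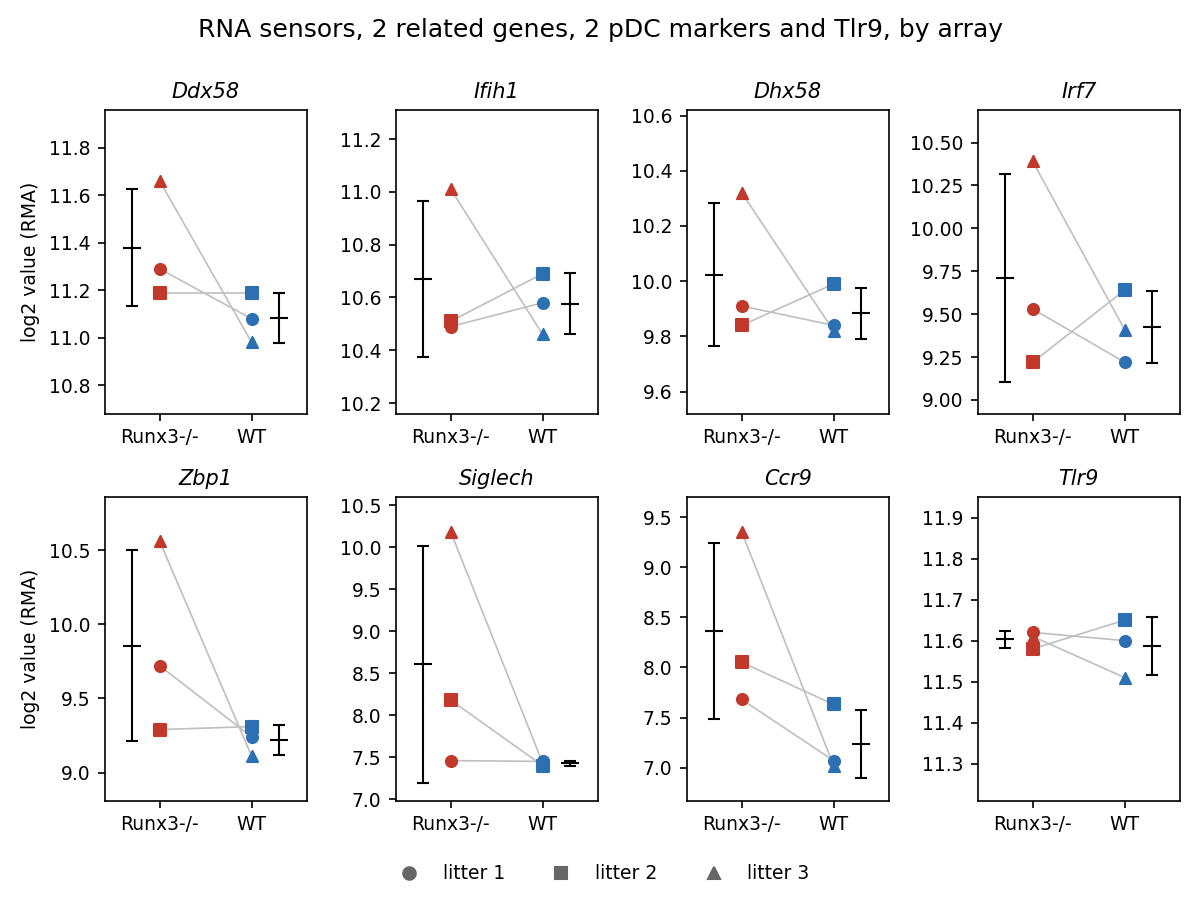
Log2 values by array of the 3 RIG-I-like receptors, of Irf7 and Zbp1, of the pDC markers Siglech and Ccr9 and of Tlr9, with Runx3-/- left of WT, litter mates joined and means ± SD (n = 3) beside the points. Vertical axes differ and do not start at 0. The triangle of Runx3-/- replicate 3 is the highest point in every panel except that of Tlr9.

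Of 46 further genes of these pathways, from signal transduction to induced cytokines, 36 were measured, with 1 called higher (1.36% of all genes), 0 called lower (0.907% of all genes) and a median change of 0.03. At the unadjusted p of 0.05 in limma, 5 of the 36 were higher (13.9%, against 7.59% of all genes) and 3 lower (8.33%, against 11.8% of all genes). The called gene was Nfkbia, the inhibitor that holds NF-κB in the cytoplasm. It was at 11.76, 11.77 and 11.77 in Runx3-/- arrays and at 11.31, 11.38 and 11.37 in WT arrays, a change of 0.41 (SE 0.06, 1.33-fold, limma adjusted p = 0.039, but 0.11 with the litter block, and not called when any single array was left out). Il12b, which encodes a subunit of interleukin-12 and is an NF-κB target, passed only the study's thresholds, at 7.59, 7.18 and 7.34 in Runx3-/- arrays and 7.07, 6.31 and 6.84 in WT arrays (0.63, SE 0.21, 1.55-fold, adjusted p = 0.23). For Il12b, WT replicate 2 was below background, so that its fold is measured against values near the floor. The arrays of Nfkbia and of Il12b did not overlap between genotypes. Lower without overlap and without passing were Tnf, an inflammatory cytokine also induced by NF-κB (-0.52, SE 0.11, adjusted p = 0.089), and Card9, an adaptor of fungal sensing (-0.36, SE 0.07, adjusted p = 0.081), both named after their values were seen. Ifnb1, Il6, Lbp and Sarm1 were below background in all arrays.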

How the data were processed

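RNA of CD4+ DC from 6 mice was hybridised to Affymetrix arrays. The values deposited by the authors are log2 intensities, made in Partek with RMA, a method that subtracts background, equalises the arrays' distributions and summarises probes, and with a correction for GC content. Equalising can hide shifts common to most genes. The processing notes name mm9 and no version of any tool. The identifiers belong to a gene-level array although the methods speak of exon arrays, and the sources differ on the RNA kit and leave any gate on Esam unclear.

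The table held 35399 probe sets (1 symbol for 21789, several for 1621, none for 11989), with 0 columns left without a sample. Probe sets at 6.5 or more in at least 1 array, the background of the methods, were tested (19149) in R 4.3.3 with limma 3.58.1 (lmFit, eBayes, two-sided, genotype as the only term), with Benjamini-Hochberg adjustment over all of them and a threshold of 0.05. The brightest probe set by mean stood for a gene. The methods' analysis of variance was run as an alternative. The fit was tested on simulated data with independent noise and no litter effect, so that check does not bear on differences between litters. Every gene of the set is named, with values per array for those past a threshold, for the 3 with the next smallest p and, beyond that rule, for others chosen after their values were seen. The genes and lists were chosen with earlier results of these data known.

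Litter numbers pair the samples: the labels give littermates, and deviations from genotype means correlated at 0.158, 0.102 and 0.246 within litters (-0.23 to 0.103 between litters). Alternatives were the litter block, other filters, quantile normalization, median centring, moderation with a trend, the mean of a gene's probe sets and each array left out. Promoter windows (found for 37 of the 46 genes) and gene order come from RefSeq tables of GRCm38.p6, which differs from mm9, so no array coordinates are given.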

Additional observations from a re-analysis of the deposited data

How the results depend on the processing

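All 39 changes were recomputed under 14 alternatives. The number of sensor and adaptor genes called higher was 2 as reported and became 0 with litter as a replicate block, 1 with no filter and 1 after quantile normalization. It became 3 with moderation with a trend (Irak3, Ly96 and Tlr8) and 0 with the methods' analysis of variance. With the mean of a gene's probe sets it was 6, and it was between 0 and 3 when each array was left out. Called lower were 0, or 1 (Ticam2) with the mean of probe sets. That setting tests 9922 genes in place of 19149 probe sets. Past the study's thresholds, lower genes numbered between 0 and 1 with an array left out. For the further pathway genes the 1 called higher became 0 with the replicate block, 0 with the analysis of variance and 0 with each array left out, and with the mean of probe sets 2 were called lower (Card9 and Tnf). Over all probe sets, 298 were called, against 0 with the replicate block, 6 with the analysis of variance, 595 genes with the mean of probe sets, and 0 to 205 with an array left out.

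The median change stayed between -0.02 and 0.07. Small changes turned sign: after median centring, Tlr1 was 0.01, Myd88 0.03 and Aim2 0.00071, and with an array left out the ranges were -0.06 to 0.01 for Tlr1, -0.02 to 0.05 for Tlr9, -0.02 to 0.04 for Tlr13, -0.10 to 0.12 for Myd88, -0.09 to 0.07 for Ticam1, -0.12 to 0.13 for Tirap, -0.20 to 0.16 for Nod2, -0.32 to 0.14 for Pycard, -0.07 to 0.01 for Aim2, -0.08 to 0.18 for Ifih1 and -0.01 to 0.23 for Dhx58. No other gene of the 39 changed sign. Apart from the array left out or the number of features tested, the cause of these differences was not tested. With 3 arrays per genotype and values near the floor for Cd14, Tlr12, Nlrc3 and Ikbke, and for Il12b among the further genes, small changes cannot be resolved.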
